A study of Homo sapiens with 7 samples.

Results

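The innate sensors of double-stranded RNA (dsRNA) and the proteins that pass on their signal were examined in ACHN cells with and without overexpression of the long non-coding RNA HOTAIR. The set held 10 genes, DDX58, IFIH1, DHX58, TLR3, MAVS, TICAM1, IRF3, IRF7, EIF2AK2 and ADAR, out of 34809 names on the array, and its members were all probes other than control spots that carried one of these names, 16 of 42405 probes. ACHN is an established human renal cell adenocarcinoma line. In the control group (EV, 4 arrays) the cells had been infected with a retrovirus carrying the empty pBabe-hygro vector, and in the HOTAIR group (3 arrays) with the same vector carrying HOTAIR cDNA, so that both groups had gone through infection by a retroviral vector and hygromycin selection. The sources used here do not say whether a pool of infected cells or a single clone was grown, and no group of cells that had not been infected was analysed here. Total RNA was labelled with Cy3 and hybridised to single-colour Agilent arrays, 1 sample per array. Nothing in the labels says that the arrays came from separate cultures, so the p-values measure the spread between these samples, which may be technical.

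Cells meet long dsRNA mainly during viral infection. RIG-I (encoded by DDX58) and MDA5 (IFIH1) bind dsRNA in the cytoplasm and signal through MAVS on mitochondria. TLR3 binds dsRNA in endosomes and signals through TRIF (TICAM1). Both routes lead to the transcription factors IRF3 and IRF7 and from them to type I and type III interferon. PKR (EIF2AK2) halts translation when it binds dsRNA, and ADAR edits adenosines in the cells' own dsRNA and so keeps it from being sensed. Several of these genes, among them DDX58, IFIH1, DHX58, IRF7 and EIF2AK2, are themselves induced by interferon.

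Each member was read through 60-base probes, of which 4 in coding sequence are printed, the probes that gave the levels of IFIH1, TLR3 and EIF2AK2 and the dimmer TICAM1 probe, which went the other way from the brighter one. Positions are on hg19 as in the array's annotation, and whether a probe lies in an exon of every transcript of its gene was not examined here. Capitals mark nothing in these sequences, which run 5′ to 3′.
IFIH1, chr2:163128806-163128865, minus strand: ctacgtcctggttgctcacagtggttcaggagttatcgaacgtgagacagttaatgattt
TLR3, chr4:187005890-187005949, plus strand: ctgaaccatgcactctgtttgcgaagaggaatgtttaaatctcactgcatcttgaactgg
TICAM1 (the dimmer of its probes), chr19:4816636-4816695, minus strand: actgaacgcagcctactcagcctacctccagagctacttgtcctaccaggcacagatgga
EIF2AK2 (the brighter of its probes, with no position in the array's annotation): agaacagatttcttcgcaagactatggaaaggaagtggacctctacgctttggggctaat
The remaining probes lay at chr9:32455398-32455457 and chr9:32455728-32455787 (DDX58), chr17:40253459-40253518 (DHX58), chr20:3835323-3835382, chr20:3847884-3847943 and chr20:3856703-3856762 (MAVS), chr19:4815995-4816054 (TICAM1), chr2:37368778-37368837 (EIF2AK2), chr19:50164025-50164084 (IRF3), chr11:612643-612702 (IRF7) and chr1:154554730-154554789 (ADAR), and 1 further IRF3 probe had no position.

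All 10 members were expressed: each of the 16 probes was well above background on all 7 arrays, by the array software's own call. None of the 10 passed the test for a difference between HOTAIR and EV cells. Levels are given as log2 intensity relative to each array's 75th percentile, so that 0 is the 75th percentile over all spots other than controls, and differences are HOTAIR minus EV. By limma, with p-values adjusted by Benjamini-Hochberg across the 20419 probes tested, 0 of 10 members passed an adjusted p of 0.05, against 0.167% of all tested probes (34 of 20419, of which 0.132% of all were higher and 0.0343% lower in HOTAIR cells). An unadjusted p under 0.05 was found for 0 members, against 5.85% of all tested probes. The exact Mann-Whitney test called 0 members as well, but with 4 and 3 arrays it could not go below an unadjusted p of 0.0571. The groups overlapped in all 10 members, and 0 of 10 were separated without overlap, against 7.7% of all tested probes. The differences ran from -0.12 to 0.16 with a median of 0.02, beside 0.01 over all tested probes, and 5 of 10 were positive. The 95% interval of the difference lay within 2-fold in either direction for all 10 members, as it did for 17773 of the 20419 tested probes. As these are bulk samples, fewer cells that express a gene and less of its RNA per cell cannot be told apart.

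**Figure D1:**
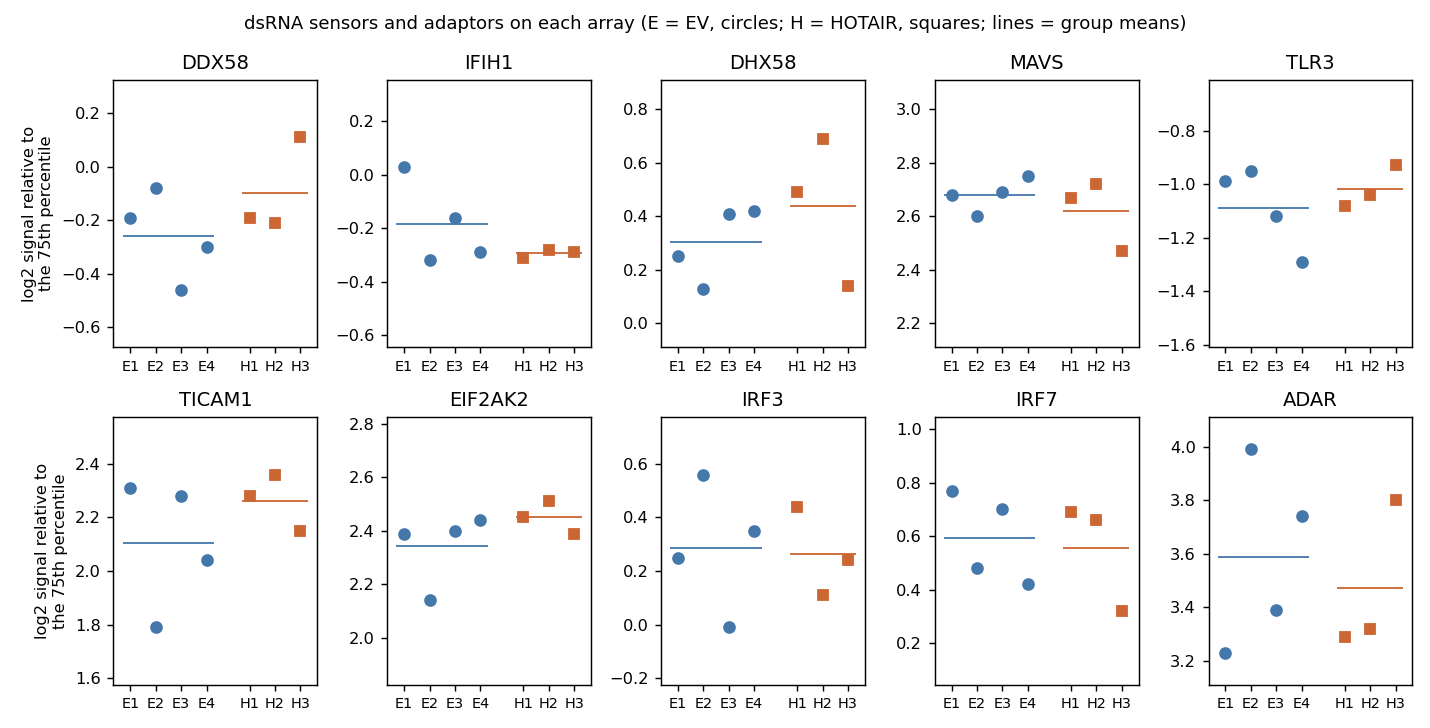
Level of each dsRNA sensor or adaptor on each array, in log2 units from the array's 75th percentile (vertical axis), for 4 EV arrays (E1 to E4, circles) and 3 HOTAIR arrays (H1 to H3, squares), read at the brightest probe of the gene. Lines are group means, all panels span the same number of log2 units, and in every panel the points of the groups overlap in range.

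The cytoplasmic sensors gave levels near the 75th percentile. DDX58 (RIG-I, named RIGI in current annotation) stood at -0.19, -0.08, -0.46 and -0.30 on EV arrays 1 to 4 and at -0.19, -0.21 and 0.11 on HOTAIR arrays 1 to 3. HOTAIR 3 was the highest array, and the other HOTAIR arrays lay inside the EV range. The difference was 0.16 (SE 0.14, 95% interval -0.16 to 0.48), which is a fold of 1.12 (0.893 to 1.4), with an adjusted p of 0.993 by limma and an exact two-sided permutation p of 0.371 over the 35 splits of the arrays, whose smallest possible p is 0.0286. The adjusted p of every member was 0.993 or 0.996, and it is not repeated below. IFIH1 (MDA5), which prefers long dsRNA, read 0.03, -0.32, -0.16 and -0.29 in EV and -0.31, -0.28 and -0.29 in HOTAIR cells. Its HOTAIR arrays were nearly equal (SD 0.0143) and sat at the low end of the EV range (SD 0.158), with a difference of -0.11 (SE 0.12, interval -0.38 to 0.17, exact permutation p = 0.371). DHX58 (LGP2), a helicase without signalling domains of its own that tunes the other sensors, read 0.25, 0.13, 0.41 and 0.42 in EV and 0.49, 0.69 and 0.14 in HOTAIR cells. HOTAIR 1 and 2 were the highest arrays of all and HOTAIR 3 was next to the lowest, so the groups overlapped over nearly the whole EV range. The difference was 0.13 (SE 0.16, interval -0.23 to 0.50, exact permutation p = 0.457).

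The endosomal sensor TLR3 read -0.99, -0.95, -1.12 and -1.29 in EV and -1.08, -1.04 and -0.93 in HOTAIR cells. HOTAIR 1 and 2 lay inside the EV range and HOTAIR 3 just above it, and the difference was 0.07 (SE 0.12, interval -0.21 to 0.35, exact permutation p = 0.543).

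Of the adaptors, MAVS was the steadiest member, with an SD between arrays within groups of 0.10, beside a median of 0.22 over all tested probes. It read 2.68, 2.60, 2.69 and 2.75 in EV and 2.67, 2.72 and 2.47 in HOTAIR cells, where HOTAIR 3 alone lay below the EV range. The difference was -0.06 (SE 0.11, interval -0.31 to 0.19, exact permutation p = 0.543), and it became 0.01 without HOTAIR 3. TICAM1 (TRIF) read 2.31, 1.79, 2.28 and 2.04 in EV and 2.28, 2.36 and 2.15 in HOTAIR cells. EV 2 was the lowest array by a wide margin and the HOTAIR arrays lay in the upper part of the EV range or just above it. The difference was 0.16 (SE 0.15, interval -0.20 to 0.51, exact permutation p = 0.429).

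The transcription factors downstream showed the smallest differences. IRF3, which is present in resting cells and is activated by phosphorylation, read 0.25, 0.56, -0.01 and 0.35 in EV and 0.44, 0.11 and 0.24 in HOTAIR cells. All 3 HOTAIR arrays fell within the EV range, and the difference was -0.02 (SE 0.16, interval -0.40 to 0.35, exact permutation p = 0.886). IRF7, which amplifies the interferon response, read 0.77, 0.48, 0.70 and 0.42 in EV and 0.69, 0.66 and 0.32 in HOTAIR cells. HOTAIR 3 was the lowest array, the others lay within the EV range, and the difference was -0.03 (SE 0.15, interval -0.37 to 0.31, unadjusted p = 0.835 by limma). No direction can be given for either factor: without scaling between arrays the differences of IRF3 and IRF7 became 0.02 and 0.01.

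The effectors were unlike in how evenly they read from array to array. EIF2AK2 (PKR) read 2.39, 2.14, 2.40 and 2.44 in EV and 2.45, 2.51 and 2.39 in HOTAIR cells. The 7 arrays lay close together apart from EV 2, and the difference was 0.11 (SE 0.11, interval -0.16 to 0.38, fold 1.08, exact permutation p = 0.286). ADAR read 3.23, 3.99, 3.39 and 3.74 in EV and 3.29, 3.32 and 3.80 in HOTAIR cells. Its arrays fell into a lower set (EV 1, EV 3, HOTAIR 1, HOTAIR 2) and a higher one (EV 2, EV 4, HOTAIR 3) that cut across the groups, and its SD within groups of 0.32 was the largest among the members. The difference was -0.12 (SE 0.22, interval -0.62 to 0.39, fold 0.923, exact permutation p = 0.657), and it became 0.02 without EV 2. ADAR thus had the widest interval of the 10 members.

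**Figure D2:**
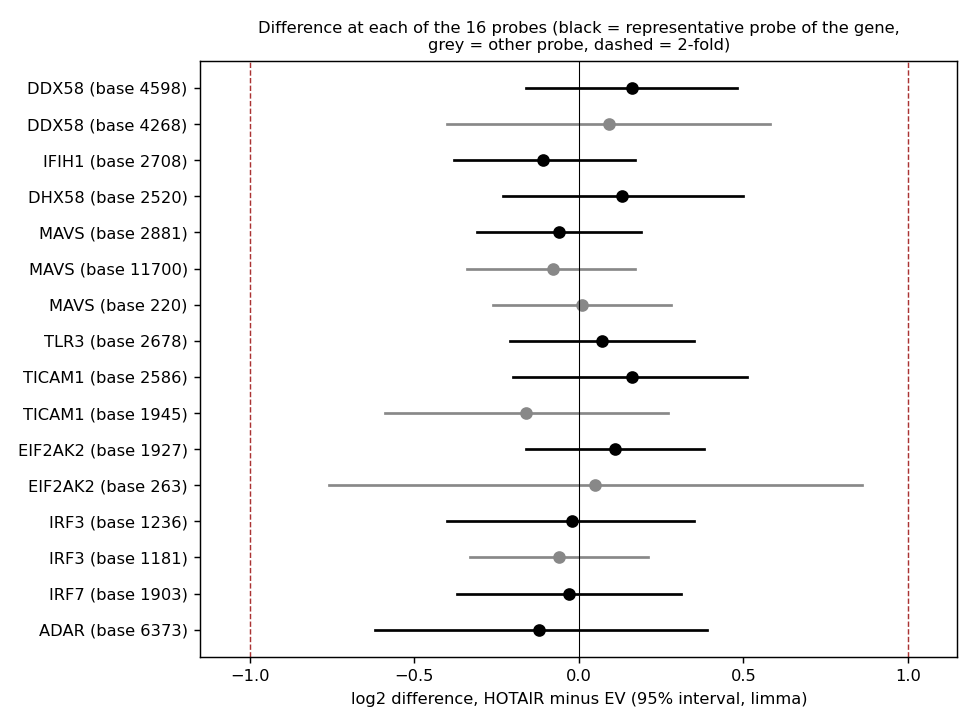
Difference between HOTAIR and EV cells (horizontal axis, log2) at each of the 16 probes, with the 95% interval from limma as a line. Black marks the brightest probe of a gene, grey the others, base is the probe's first position in the transcript, and the dashed lines mark 2-fold. All 16 intervals include 0 and lie inside the dashed lines.

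For 5 members more than 1 probe was present, which gave a second reading of the same gene on the same arrays. The other DDX58 probe differed by 0.09 (interval -0.40 to 0.58), the other MAVS probes by -0.08 (-0.34 to 0.17) and 0.01 (-0.26 to 0.28), and the other IRF3 probe by -0.06 (-0.33 to 0.21). For TICAM1 the readings went opposite ways, 0.16 at the brighter probe and -0.16 (interval -0.59 to 0.27) at the dimmer, whose intensity was only 30 to 57. The gap between these probes, brighter minus dimmer, was 5.81, 5.93, 6.02 and 5.88 in EV and 6.03, 6.25 and 6.40 in HOTAIR cells, so the groups did not overlap, with the HOTAIR arrays higher. Its exact permutation p was 0.0286, the smallest that 35 splits allow, and 0.2 after Benjamini-Hochberg adjustment over the 7 probe pairs compared. In the other 6 pairs the adjusted p was 0.886.

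The other EIF2AK2 probe lay near the 5′ end of another EIF2AK2 transcript record and varied most between arrays. It read -1.11, -2.47, -1.23 and -1.96 in EV and -1.42, -1.47 and -2.04 in HOTAIR cells, a range of 1.36. EV 2, HOTAIR 3 and EV 4 were its lowest arrays, and the same 3 arrays were the highest for ADAR, whose only probe lies at base 6373 of the transcript. The difference was 0.05 (SE 0.35, interval -0.76 to 0.86). Across the array, the 5′ and 3′ probes of 1777 transcripts, at least 500 bases apart, were compared. The 5′ minus 3′ difference was taken relative to each transcript's own mean over all arrays. Its median, the shift, was -0.32 on EV 2, -0.15 on HOTAIR 3 and 0.04 to 0.21 on the other 5 arrays, EV 4 included (0.06). These shifts stand beside the values of ADAR and the 5′ EIF2AK2 probe, and their part in them was not tested. For the 10 member probes printed on the array more than once, spots on the same array differed by a median of 0.018 to 0.097. The largest single difference was 0.29, for DDX58 on EV 3.

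**Figure D3:**
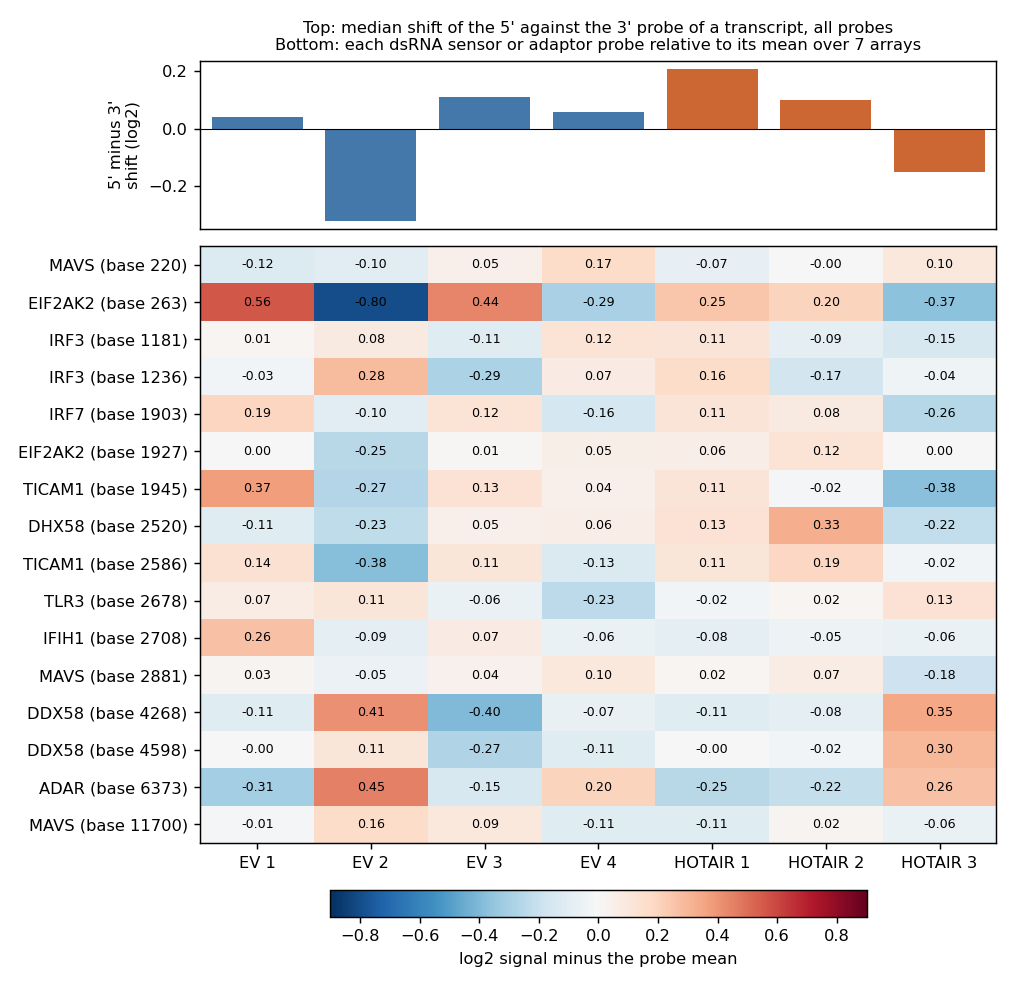
Top, median shift of the 5′ against the 3′ probe of a transcript on each of the 7 arrays (log2, bars from 0), over 1777 transcripts. Each shift is relative to the transcript's own mean over the arrays. Bottom, each member probe on each array as log2 signal minus the probe's mean over the arrays, ordered from the probe nearest the 5′ end to the one farthest from it. EV 2 is lowest in the top panel and carries the extreme cell of the lower one, -0.80 at the 5′ EIF2AK2 probe, while ADAR reads 0.45 there.

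Facts of the whole series that bear on these values are few. HOTAIR itself, at probe A_32_P168442, read -6.29, -6.97, -6.42 and -7.07 in EV cells, where 0 of 4 arrays were well above background. It read -3.12, -3.24 and -2.58 in HOTAIR cells, where 3 of 3 were (adjusted p = 0.00162 by limma). The probe entered the test only through the HOTAIR group, in which it was higher. Its levels are therefore a description, and its p-value supports nothing. The 75th percentile of intensity was 523 to 649 on EV and 552 to 640 on HOTAIR arrays, and 48.7% to 52.1% of probes were well above background. All arrays lay on 1 slide, EV arrays in one of its rows and HOTAIR arrays in the other, so row and group cannot be told apart. Of 7 kidney epithelial markers 6 were detected on all arrays, and CDH6 was well above background on none of them. COL1A1, COL3A1, DCN and LUM of fibroblasts, VWF, KDR and TEK of endothelium and CD3E of T lymphocytes were well above background on no array. By contrast, CD14 was well above background on all 7 arrays, CDH5 on 4, PTPRC on 3, PDGFRA on 2 and PECAM1 on 1.

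The surrounding pathway was read through 9 lists of 138 genes, of which 137 had a probe and 109 were tested. By limma, 0 of the 109 passed the adjusted p, and 0 passed by the Mann-Whitney test. An unadjusted p under 0.05 by limma was found for 12 (11%), against 5.85% of all tested probes. These 12 include OASL, CMPK2 and TMEM173, which entered the test only through the group in which they were higher. The share of 11% therefore supports nothing. Over the 109 genes the median difference was 0, and the interval lay within 2-fold for 96 of them. Of 19 genes that take part in signalling from the sensors, among them kinases and ubiquitin ligases, 18 were tested and 9 were positive. Their differences ran from -0.28 to 0.17 with a median of 0. Inhibitors of the pathway (14 tested, 4 positive) had a median of -0.06, other dsRNA-binding proteins (16 tested, 3 positive) of -0.04, and the eIF2 kinases beside PKR with their partners (7 tested, 0 positive) of -0.07. Other sensors of nucleic acid (6 of 12 tested) had a median of 0.05, other interferon regulatory factors (3 of 7 tested) of 0.07, and cytokines and NF-kB targets (5 of 11 tested) of -0.01.

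Of 7 interferon genes that were read, 6 were well above background on no array. The listed interferon-alpha gene, IFNA1, had no probe of this name, and other interferon-alpha genes were not examined here. IFNB1, IFNE, IFNK and IFNW1, which encode type I interferons, and the type III genes IL28B and IL29 reached the well-above-background call on 0 arrays, as did the interferon-induced genes MX2 and RSAD2 and the chemokines CXCL10, CXCL11 and CCL5. These were among 23 listed genes without a single array well above background, and they, IL28A and the receptor chains are named after their values were seen. IL28A, another type III gene, was well above background on 6 arrays, with means of -4.95 in EV and -5.17 in HOTAIR cells. Its difference (-0.22, interval -0.69 to 0.24) is a description, since it was measured close to background. The receptor chains IFNAR1 (difference 0.01, interval -0.30 to 0.33) and IFNAR2 (-0.07, interval -0.30 to 0.16) were detected on all 7 arrays.

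Of 33 interferon-stimulated genes 28 were tested, and 23 of them (82.1%) had positive differences, against 52.8% of all tested probes. The median was 0.20, beside 0.01 over all tested probes, and none passed the adjusted p by limma. An unadjusted p under 0.05 by limma was found for 6 of the 28, against 5.85% of all tested probes. These 6 include CMPK2, which entered the test only through the HOTAIR group, in which it was higher. BST2, another of the 6 and named after its values were seen, was well above background on only 6 arrays. It too therefore entered the test through a single group. The count therefore supports nothing. Relative to each gene's own mean, the median over the 28 genes was -0.02, -0.09, -0.04 and -0.09 on the EV arrays and 0.10, 0.14 and 0.12 on the HOTAIR arrays. The HOTAIR arrays thus stood above all EV arrays in this median, a description with no test. The median difference lay between 0.10, with normexp background correction, and 0.24, without scaling between arrays, and it was 0.12 without EV 2 and 0.15 over the 26 genes well above background on all 7 arrays. The number of positive differences among the 28 also moved. It was 20 with quantile normalization, with the replicate number as a block, and with EV 1, EV 4 or HOTAIR 3 left out singly. Without scaling between arrays it was 25. MX1, an antiviral GTPase chosen here after its values were seen, had group means of -0.77 in EV and -0.30 in HOTAIR cells, a difference of 0.46 (interval 0.17 to 0.76) with an adjusted p of 0.469 by limma.

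**Figure D4:**
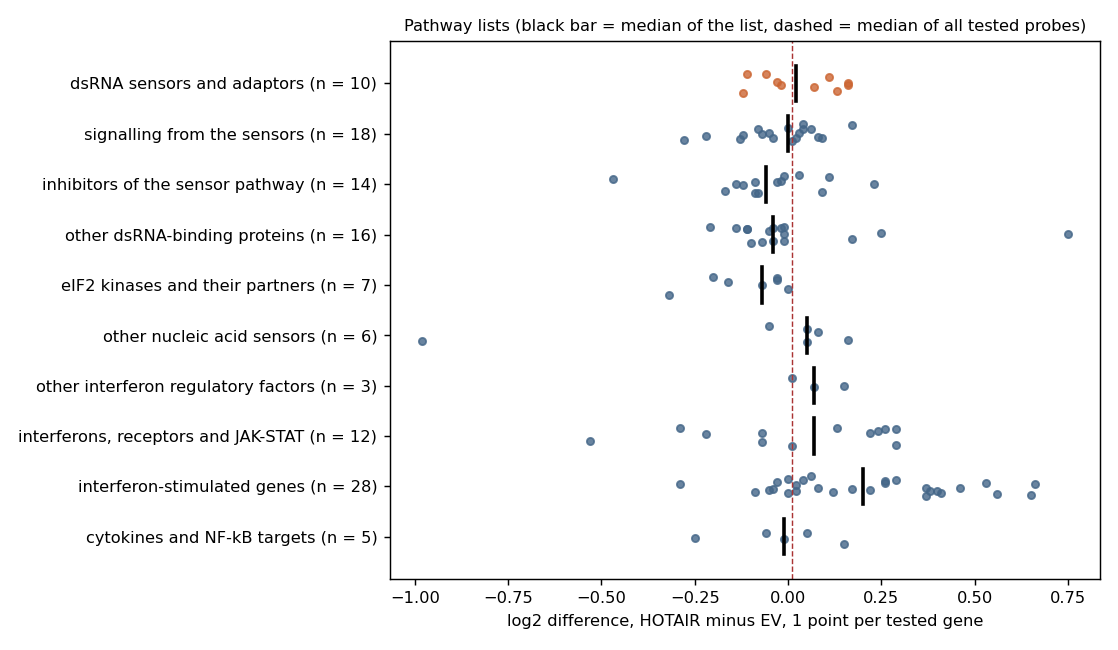
Difference between HOTAIR and EV cells (horizontal axis, log2) for each tested gene of the dsRNA sensors and adaptors (top row) and of 9 pathway lists, 1 point per gene, with the number of tested genes in parentheses. Black bars are list medians and the dashed line is the median of all tested probes, 0.01. The sensors and adaptors lie between -0.12 and 0.16, and the interferon-stimulated genes have the highest median, 0.20.

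Of the genes with the largest differences in the lists, 5 are described here, none past the adjusted p. OASL, CMPK2 and TMEM173 entered the test only through the group in which they were higher, whose arrays were all well above background, a filter that favours a difference, so their values are a description and their p-values and lack of overlap support nothing. OASL, a relative of the 2′-5′ oligoadenylate synthetases, differed by 0.75 (interval 0.09 to 1.41, adjusted p = 0.77 by limma, exact permutation p = 0.114). Its HOTAIR arrays lay at -4.42 to -4.16 and its EV arrays at -5.39 to -4.19, of which EV 2 was the highest and 3 of 4 were well above background. It passed the adjusted p when EV 2, the highest EV array, was left out. CMPK2, a mitochondrial nucleotide kinase induced by interferon, read -4.97, -5.24, -5.18 and -5.51 in EV and -4.74, -4.54 and -4.43 in HOTAIR cells, and only 2 of 4 EV arrays were well above background there. Its groups did not overlap (difference 0.66, interval 0.30 to 1.01, adjusted p = 0.305 by limma, exact permutation p = 0.0286). PSMB9, an immunoproteasome subunit, differed by 0.65 (interval -0.59 to 1.88), with EV 2 at 1.48 and the other EV arrays up to 3.65.

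TMEM173, which encodes the DNA-pathway adaptor STING, was lower in each HOTAIR array than in any EV array, at -4.91, -5.08 and -4.81 against -4.21, -3.82, -3.45 and -4.33. The difference was -0.98 (interval -1.49 to -0.47, adjusted p = 0.259 by limma, exact permutation p = 0.0286), and 1 of 3 HOTAIR arrays was well above background. CYLD, a deubiquitinase that restrains RIG-I signalling, differed by -0.47 (interval -0.85 to -0.10, adjusted p = 0.694 by limma, exact permutation p = 0.0286), also without overlap. Groups without overlap were found in 7.7% of all tested probes. With limma's array weights OASL, CMPK2 and TMEM173 passed the adjusted p, in a fit that called 324 probes in all, and the same limit holds.

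The genes whose level followed a sensor most closely over the 7 arrays were looked up among the tested probes, as a description in which all points share the same 7 RNA samples and 1 slide. For DDX58 they were TNFRSF21 (r = 0.976), ARAP3 (r = 0.976) and CA2 (r = 0.966) out of 19794 probes. For IFIH1 they were ELMOD2 (r = 0.989), TMEM69 (r = 0.987) and EWSR1 (r = 0.981), and for EIF2AK2 a lincRNA of chromosome 14 (r = 0.997), GPX8 (r = 0.988) and GJC1 (r = 0.988). Without EV 2 all 9 values stayed at 0.968 or above. With 7 points each, these values are the upper end of a very large search.

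The promoters of the members were searched on both strands for GAAA, any 2 bases and GAAA, the core of the interferon-stimulated response element, which IRFs bind. RefSeq windows from 250 bases before to 50 after the start (GRCh38.p14) were present for 7 of 10 members, not for DHX58, IRF3 and IRF7. The letters were in 3 of 7 (42.9%), in IFIH1, TLR3 and EIF2AK2, against 20 of 29 interferon-stimulated genes (69%) and 996 of 27305 windows of the same length (3.65%). In DDX58, MAVS, TICAM1 and ADAR they were not in this window. Only a single window per gene was searched, and windows at other start sites of a gene were not. The stretches are printed to show where the letters lie, in capitals, on the strand of the gene, where TTTC, any 2 bases and TTTC is the same element on the other strand.
IFIH1, chr2:162318813-162318873, minus strand, with overlapping matches: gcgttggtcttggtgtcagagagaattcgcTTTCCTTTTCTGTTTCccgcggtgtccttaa
IFIH1, chr2:162318681-162318735, minus strand: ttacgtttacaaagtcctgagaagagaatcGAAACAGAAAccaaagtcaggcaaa
TLR3, chr4:186069122-186069165, plus strand: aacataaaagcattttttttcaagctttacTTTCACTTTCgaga
EIF2AK2, chr2:37156971-37157016, minus strand: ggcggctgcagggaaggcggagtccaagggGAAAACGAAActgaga
The first letter of the match lay 159 and 21 bases before the start in IFIH1, 4 in TLR3 and 6 in EIF2AK2. The members with the letters differed by -0.11, 0.07 and 0.11 between HOTAIR and EV cells and the 4 searched members without them by -0.12 to 0.16, so the values of those with the letters lay within the range of those without.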

How the data were processed

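Per the labels, total RNA of 7 ACHN samples (4 EV, 3 HOTAIR) was hybridised to 1 single-colour array each, and the authors deposited the Agilent Feature Extraction 10.7.3.1 output with a processed intensity (background-subtracted) for each spot, and a table whose 440783 cells lay within 0.498% of those intensities. The log2 of the deposited intensity was taken here, less each array's 75th percentile over its 58717 spots other than controls. Outlier spots by the software's call (408 to 600 per array) were removed before the spots of a probe were averaged, which left 14 probes incomplete and unused. A probe was tested if the software called it well above background on all arrays of either group, which held for 20419 probes with 16664 gene names. HOTAIR was compared with EV by lmFit and eBayes of limma 3.58.1 in R 4.3.3, at an adjusted p of 0.05 (Benjamini-Hochberg, over the 20419 probes), which also gave the 95% intervals. A gene with several probes was read at its brightest. Single values were compared by an exact two-sided permutation test over 35 splits. The script was tested on simulated data. The number of arrays limits the precision.

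The members, the 9 pathway lists and the marker lists were chosen with earlier results of these data known. Named genes are the members, HOTAIR, list genes past the adjusted p or else the 3 largest differences of each sign over all lists, and the 3 probes with the highest r for DDX58, IFIH1 and EIF2AK2, and names outside this are marked. Some genes that these rules name are not reported here. The promoter sequences are RefSeq's. Tried as alternatives were quantile normalization, normexp background correction (offset 50), the 75th percentile of detected probes only, no scaling, other filters, arrays left out, a replicate block, array weights, trend and robust moderation, and the Mann-Whitney U test.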

Additional observations from a re-analysis of the deposited data

Results flagged for a closer look

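In the brighter EIF2AK2 probe (A_23_P142750), EV 2 stood apart from the other EV arrays. It read 2.14 and the others 2.39 to 2.44, and the gap to the nearest of them was 0.847 of the whole range of the group, above Dixon's 95% critical value for 4 samples. This was 1 of 16 member probes examined in this way, and chance flags about 0.8 of 16. EV 2 was also the array with the lowest 5′ against 3′ shift (-0.32), whose part in this value was not tested.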

How the results depend on the processing

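Under 18 alternatives 0 members passed the adjusted p by limma or, in place of it, the Mann-Whitney test, and the lowest adjusted p of any member was 0.357. The filters, the moderation and the Mann-Whitney test (4 alternatives) leave the differences as they are by construction. Under the others 12 differences turned, and the largest of all was 0.28 in size. IRF3 became 0.02 without scaling, 0.08 without EV 2 and HOTAIR 3 together and 0.1 with array weights, and IRF7 became 0.01 without scaling and 0.05 without EV 2 and HOTAIR 3. With 1 array left out, IRF3 ran from -0.12 to 0.07, IRF7 from -0.1 to 0.09, ADAR from -0.28 to 0.02 and MAVS from -0.11 to 0.01, and the other 6 kept their sign but moved, DHX58 from 0.01 (without HOTAIR 2) to 0.28 (without HOTAIR 3), TLR3 from 0.01 to 0.12, TICAM1 from 0.05 to 0.22, DDX58 from 0.06 to 0.22, EIF2AK2 from 0.04 to 0.14 and IFIH1 from -0.15 to -0.04. The cause of these turns was not tested.

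Over the whole array 34 probes were called, and this number moved to 12 with normexp correction, 14 with no filter, 22 with the filter on all arrays, 20 with trend and robust moderation, 324 with array weights, 14 without EV 2 and HOTAIR 3, and 0 with the Mann-Whitney test, which cannot reach the threshold at this size. With 1 array left out it ran from 9 (without EV 1) to 31 (without EV 2), with 10 to 12 without each of the others. With the replicate number as a block it was 0, no member passed, no sign turned, and IRF3 stood at 0, as it did without EV 4. The deviations of same-numbered arrays from their group means had correlations of 0.386, -0.368 and -0.406. The highest between an EV and a HOTAIR array was 0.619, for EV 2 and HOTAIR 3. These deviations cancel out within each group, so correlations of both signs arise by construction. They cannot show whether the numbers pair the samples. The slide block was not run, since all arrays lay on 1 slide. The dimmer TICAM1 probe, CMPK2, OASL, TMEM173, BST2 and IL28A were measured close to background.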
